A study of Tigriopus californicus with 32 samples.

Results

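Copepods from the northern and the southern populations of Tigriopus californicus were compared at a constant 20°, before any heat. The comparison used the 8 libraries of the constant 20° treatment (20NV) out of 32 libraries in the series. The 4 southern libraries came from San Diego (SD-S) and Bird Rock (BR-S), and the 4 northern libraries came from Santa Cruz (SC-N) and Bodega Bay (BB-N). Each library was made from 1 pool of 100 whole adults, and each population had 2 pools, here called a and b after the endings of their column names. The genes were those listed at 20NV in all 4 populations, which left 14478 of the 21102 genes listed in at least 1 of them and of 21556 in the series.

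All 4 populations had been kept in culture at 20°, and the 20NV animals were reared and sampled at that temperature. In the other 3 treatments, animals reared at 20° were moved once to 28° (28ST), or were reared in a daily cycle between the temperatures and sampled at 20° (20V) or at 28° (28V). Each sequencing lane held 1 southern and 1 northern population: SD-S ran with SC-N, and BR-S ran with BB-N. These lane pairs formed the block of the fit. The replicates of a population ran in separate lanes, so a block for each of the 4 lanes, with the column ending taken to stand for the lane, was the second fit. According to the paper, the second replicate of SD-S and of SC-N ran on another instrument model than all other libraries. Instrument and replicate thus cannot be told apart within that lane pair. Since whole animals were pooled, fewer cells of a type and less RNA per cell cannot be told apart.

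T. californicus lives in splash pools high on the shore, where water temperature changes quickly, and the populations along the coast are strongly diverged from each other. Southern populations of this species survive higher temperatures than northern ones. Heat-shock proteins are chaperones that keep other proteins folded, and many of them are made in quantity only after warming, so their level before heat is the level from which that response starts. Cytochrome P450 enzymes and glutathione S-transferases chemically modify foreign compounds and the body's own lipids and hormones.

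The files list unique reads scaled to the library, and whole reads were recovered for every value. Libraries held between 4405874 and 14373568 recovered reads on listed genes, and between 93.4% and 95.6% of these fell on the 14478 shared genes. A value below is the number of scaled reads per 1000000 in 1 library, and a difference is northern minus southern on the scale log2(value + 1), which understates changes of low genes. Across genes, the 2 libraries of a population correlated at r = 0.932 to 0.968 on the log2 scale. Libraries of SD-S and BR-S correlated at 0.825 to 0.899, those of SC-N and BB-N at 0.870 to 0.902, and those of SD-S and BB-N at 0.867 to 0.880. The lowest correlations between regions were those of BR-S and SC-N, at 0.763 to 0.846. The range of SD-S with BR-S, within the south, thus contained that of SD-S with BB-N, across the regions. Some libraries stood apart in what they held. In SC-N b the transcript Contig6667_8147, a vitellogenin (a yolk protein precursor made by females), took 13.1% of reads. In BR-S, Contig5617_7182, which has no description, took 15.9% and 13.0% of reads, against at most 1.91% in any other library. Nothing in the labels says that the pools of a population came from separate cultures, so p-values measure the spread between these libraries.

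At 20NV, 1261 of the 14478 genes differed between the regions at an adjusted p below 0.05 (8.71% of genes; limma with the lane pair as a block and Benjamini-Hochberg adjustment). Of these, 652 were higher in the north (4.5% of genes) and 609 were higher in the south (4.21%). A replicate block for each of the 4 lanes left 262 genes, 136 higher in the north and 126 in the south, and all 262 were among the 1261. The difference was at least 2-fold in 820 of the 1261. The 4 northern values lay entirely above or below the 4 southern ones in 1057 of the called genes, against 2157 of all 14478 genes (14.9%; 7.45% in each direction). The 4 libraries of a region came from only 2 populations, and libraries of 1 population are not independent samples of a region. With 1 mean per population in the fit, 6 genes passed the same threshold (0.0414%), and 1440 genes had an unadjusted p below 0.05. The count from libraries describes how these 4 populations differed, and it moved from 433 to 2326 when 1 library at a time was left out. It was 433 without BB-N a, 436 without SC-N a, 490 without SD-S a, 498 without BR-S b, 510 without BR-S a, 541 without BB-N b, 841 without SC-N b and 2326 without SD-S b. Without both SC-N b and SD-S b, an alternative added after the data were seen, 1991 genes passed, 960 of them among the 1261. The labels do not say whether these are the libraries from the other instrument model, and an effect of the instrument was not tested. Scaling to total reads in place of the trimmed mean of M-values moved the median of all genes by 0.08 and gave 605 higher in the north and 349 higher in the south.

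**Figure D1:**
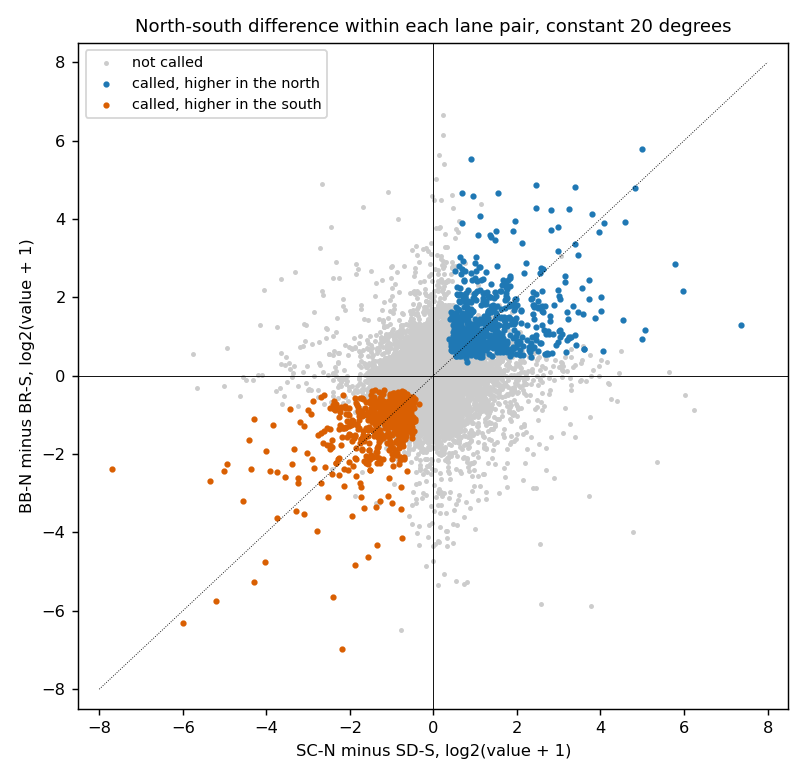
Each point is 1 of 14478 genes, placed by its difference between SC-N and SD-S (horizontal, log2(value + 1)) and between BB-N and BR-S (vertical, same scale). The 652 genes called higher in the north lie in the upper right and the 609 called higher in the south in the lower left, while genes far out along 1 axis differed in 1 lane pair.

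The 6 genes called with population means were 3 genes higher in each region, and the libraries of the regions did not overlap for any of them. comp49397_c0_seq1_39570, a transcript with no description, had values of 726 and 641 for SD-S, 830 and 745 for BR-S, 18.2 and 16.7 for SC-N, and 13.8 and 13.3 for BB-N. Every southern library was far above every northern one. The difference was -5.48 ± 0.16 (SE, n = 4 libraries a region), a 44.8-fold lower level in the north, with an adjusted p of 1.65e-06 (limma), and 0.0481 from population means (limma). The collagen alpha-3 chain transcript comp32286_c0_seq1_17548, for a structural protein of the extracellular matrix, had values of 77.0, 160, 335 and 285 in the south. In the north it had 0.194, 1.61, 2.02 and 4.08, so few reads stood behind the northern values, and SC-N a held 1 read. Its difference was -6.15 ± 0.34 (SE), the largest among the 24 leading genes, those with the largest differences in each direction whose regions did not overlap, at an adjusted p of 8.9e-05 (limma).

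The other southern gene of the 6 was TCALIF_09973, a cytochrome P450 (cyp3032c1). Its values were 441 and 256 for SD-S and 309 and 431 for BR-S, against 23.8 and 24.1 for SC-N and 29.5 and 28.0 for BB-N. The difference was -3.69 ± 0.20 (SE; adjusted p = 8.9e-05, limma), and it was almost equal within the lane pairs, at -3.75 and -3.62. The northern genes of the 6 were TCALIF_04670, comp40640_c0_seq2_25516 and comp49769_c0_seq2_40543. The transcript comp49769_c0_seq2_40543, which has no description, had values of 15.5 to 35.6 in the south and of 293 to 582 in the north. TCALIF_04670, also without a description, had 3.53, 10.1, 2.30 and 6.01 in the south and 136, 368, 314 and 224 in the north (difference 5.39 ± 0.43, SE; adjusted p = 0.000478, limma).

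Among genes higher in the south, the next after these were TCALIF_08536 and TCALIF_12406. TCALIF_08536, with no description, had values of 747, 524, 305 and 616 in the south. It had 1.94 and 2.15 for SC-N but 82.2 and 82.0 for BB-N, so the northern populations differed strongly from each other. The difference of -5.04 ± 0.93 (SE; adjusted p = 0.0172, limma) lost its call without SD-S a, at an adjusted p of 0.0522, and with the 4 lanes as block, at 0.0797 (limma). TCALIF_12406 carries the description cell death protein 3, the name of a caspase of Caenorhabditis elegans, a protease that carries out programmed cell death. It had 290, 123, 164 and 261 in the south and 8.72, 8.59, 4.77 and 4.08 in the north (difference -4.78 ± 0.32, SE; adjusted p = 0.000199, limma).

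Among the other described genes with the 10 largest southern differences, TCALIF_13161, a hemagglutinin/amebocyte aggregation factor-like gene named after a clotting protein of horseshoe crab blood cells, ranged from 234 to 354 in the south and from 11.5 to 123 in the north. Its difference of -3.10 ± 0.57 (SE) was not called without BR-S a (adjusted p = 0.052, limma), without BB-N a (0.0531) or with the 4 lanes as block (0.0762). TCALIF_07918, a pancreatic triacylglycerol lipase-like gene, the kind of enzyme that splits dietary fat, ranged from 39.0 to 64.9 in the south and from 2.71 to 9.36 in the north (difference -3.09 ± 0.30, SE). TCALIF_05031, a G-protein coupled receptor named after the mth2 receptor of Drosophila, ranged from 35.3 to 65.5 and from 3.30 to 8.72 (difference -2.80 ± 0.28, SE). comp37291_c0_seq1_21807, a chloride channel, ranged from 32.7 to 41.5 in the south and from 3.29 to 8.63 in the north. TCALIF_06195, an uncharacterized protein, ranged from 13.6 to 26.7 and from 0.775 to 5.53. These last 4 genes kept their calls with any 1 library left out, with adjusted p-values of at most 0.0101 (limma).

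Among genes higher in the north, comp40640_c0_seq2_25516 led the described genes. Its description, caspase nc-like, is that of a Drosophila caspase that starts programmed cell death. It had values of 7.73, 3.58, 3.58 and 2.96 in the south and of 180, 174, 171 and 78.7 in the north. The difference was 4.80 ± 0.29 (SE; adjusted p = 0.000127, limma), with 4.81 and 4.78 in the lane pairs. comp42513_c0_seq1_27765, a glutathione S-transferase 1-like transcript, had 1.18 and 2.73 for SD-S and 54.2 and 37.8 for BR-S. It had 544 and 405 for SC-N and 99.8 and 125 for BB-N, so the regions did not overlap, yet BR-S was much nearer to BB-N than to SD-S. Its difference of 4.33 ± 1.06 (SE; adjusted p = 0.0417, limma) was called with only 1 of the 8 libraries left out, BR-S a, and lost its call without each of the others (adjusted p between 0.0531 and 0.106, limma). Its adjusted p was 0.127 with the 4 lanes as block (limma).

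TCALIF_12346, with no description, had 2.30 to 3.03 in the south and 324, 127, 9.18 and 57.0 in the north (difference 4.32 ± 0.72, SE). comp48310_c0_seq2_36984, a cuticle protein precursor, had 2.69 to 7.96 in the south and 15.7, 298, 104 and 70.7 in the north, where the lowest and the highest value both came from SC-N. Its difference of 3.99 ± 0.76 (SE; adjusted p = 0.0198, limma) was not called without SD-S a (0.0613), BR-S a (0.0583) or BB-N a (0.062). comp47388_c0_seq1_35026 is described as mixed-lineage leukemia, a family of histone methyltransferases. It had 2.69, 4.43, 2.30 and 0.931 in the south and 48.8, 35.6, 42.4 and 51.9 in the north (difference 3.75 ± 0.30, SE; adjusted p = 0.000496, limma). comp47743_c0_seq1_35846, of a flavin-binding family, had 2.26 to 3.30 in the south and 30.7 to 37.3 in the north (difference 3.27 ± 0.20, SE; adjusted p = 0.000128, limma).

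Of 43 tested ubiquitin and proteasome genes, 2 were called (4.65%, against 8.71% of all genes), both higher in the north. comp49742_c1_seq1_40486, ubr3-like, had 4.71, 1.32, 5.63 and 2.20 in the south and 50.4, 65.5, 17.3 and 18.0 in the north (difference 3.01 ± 0.48, SE; adjusted p = 0.00985, and 0.0538 with the 4 lanes as block, limma). Contig6456_7957, described as ubr4, had 1.85 to 3.64 in the south and 7.36 to 18.2 in the north (difference 1.89 ± 0.21, SE; adjusted p = 0.00225, limma). Both names are those of E3 ligases, which attach ubiquitin, the tag for breakdown by the proteasome, to their target proteins. The other 41 did not pass, and the median difference over the list was 0.18 against -0.0023 over all genes. Without SD-S b, 5 members were called, all higher in the north, while 2326 of all 14478 genes were called.

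The last 4 described genes among the 10 largest northern differences were myotrophin, a protein phosphatase, a cAMP-responsive element binding protein and lipase 3. Myotrophin (comp43577_c0_seq4_29144) ranged from 3.98 to 10.2 in the south and from 38.1 to 72.7 in the north. The protein phosphatase transcript comp33503_c0_seq1_18669 ranged from 1.13 to 3.81 and from 13.9 to 27.5. comp32719_c0_seq1_17930, described as camp-responsive element binding protein 2, a transcription factor, had 2.86 and 1.23 for SD-S but 46.5 and 60.7 for BR-S, against 82.8 to 129 in the north. Its call was lost without 6 of the 8 libraries (adjusted p up to 0.114, limma), all but BR-S b and BB-N b, and with the 4 lanes as block (0.126).

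Of the 24 leading genes, 18 kept their call with any 1 library left out, and 18 kept it with the 4 lanes as block. All 24 had an unadjusted p below 0.05 with 1 mean per population (limma), against 82.9% of the 1261 called genes and 9.95% of all genes. The 24 were picked for large differences without overlap in these same libraries, so this is not independent support.

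**Figure D2:**
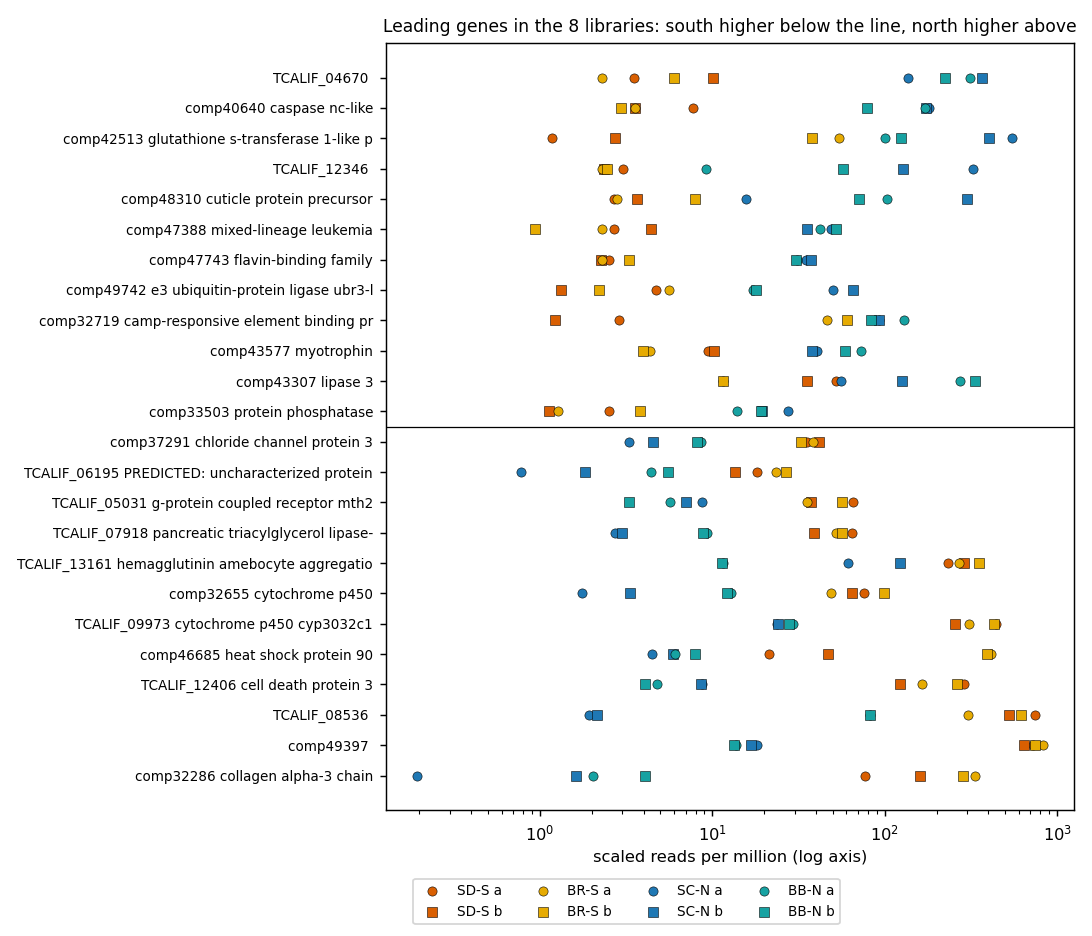
Values of the 24 leading genes in each of the 8 libraries (scaled reads per 1000000, log axis), coloured by population, with circles for library a and squares for library b. The 12 genes above the line were higher in all northern libraries, the 12 below it in all southern libraries, and SD-S and BR-S lay apart from each other for the glutathione S-transferase and the cAMP-responsive element binding protein.

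Reads of each population were mapped first to its own version of the genes annotated in the San Diego genome (genomic transcripts), and what remained was mapped to transcripts assembled de novo. The direction of the calls differed between these reference sets. Of 10716 genomic transcripts, 226 were higher in the north (2.11%) and 467 in the south (4.36%). Of 3762 de novo transcripts, 426 were higher in the north (11.3%) and 142 in the south (3.77%). Among the 12 leading genes higher in the north 10 were de novo transcripts, and among the 12 higher in the south 5 were. A de novo transcript receives only reads that found no place among the genomic transcripts, so a gene present in both sets could be split between them differently in each population. The part of this in the calls was not tested.

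The caspase-like transcripts were a case of opposite calls under related names, picked out after their values were seen. The genomic TCALIF_12406 was high in the south and the de novo comp40640_c0_seq2_25516 was high in the north. Added together, they had 297, 126, 167 and 264 in the south and 189, 182, 176 and 82.8 in the north, and these ranges overlapped. Over all 4 caspase-described transcripts tested, the sums were 168 to 336 in the south and 111 to 225 in the north. Whether they belong to 1 gene was not tested.

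The north-south difference itself differed between the lane pairs in 932 genes (6.44%) by the interaction term (limma, adjusted p below 0.05). Fitted alone, SC-N against SD-S called 1525 genes (10.5%) and BB-N against BR-S called 2005 (13.8%). There were 383 genes called in both with the same sign, all of them among the 1261, and 85 called in both with opposite signs. The described genes with the largest difference between the pairs among the 85 are named here, chosen after their values were seen. The first was TCALIF_02213, a MAM protein, the name of a domain found in proteins of the cell surface. It had 6.72 and 5.56 for SD-S, 38.4 and 129 for BR-S, 303 and 277 for SC-N, and 22.8 and 9.03 for BB-N. The next was comp32466_c0_seq1_17712, a ribosomal protein S27 transcript, with 41.3 and 30.5 for SD-S, 2.81 and 3.22 for BR-S, 3.88 and 5.80 for SC-N, and 116 and 119 for BB-N. In both genes the populations differed strongly without following the region.

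Of the gene lists, detoxification and antioxidant genes had the highest share of called members, 7 of 22 tested (31.8%, against 8.71% of all genes). Their median difference was -0.57, and with 1 library left out 1 or 2 were called higher in the north and 4 to 7 in the south. The count over all genes then ranged from 433 to 2326. The block for the 4 lanes left 4 calls, all higher in the south. The southern calls were 5 cytochrome P450 genes, and the northern calls were the glutathione S-transferase described above and a glyoxalase I-like lactoylglutathione lyase. Besides TCALIF_09973, the P450 gene TCALIF_07803 (cyp3025a2) had 155, 97.3, 147 and 175 in the south and 25.8, 21.9, 33.4 and 33.3 in the north. Its difference was -2.28 ± 0.18 (SE; adjusted p = 0.000449, limma), with -2.32 and -2.23 in the lane pairs. comp32655_c0_seq1_17876, a P450, had 75.5, 64.4, 49.1 and 98.4 in the south, 1.74 and 3.33 for SC-N, and 12.8 and 12.2 for BB-N (difference -3.37 ± 0.42, SE; adjusted p = 0.00355, limma).

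The other 2 called P450 genes were TCALIF_13352, with 69.5 to 144 in the south and 27.3 to 68.8 in the north, and comp49679_c0_seq4_40337, with 47.1 to 93.1 and 6.89 to 32.3. The difference of the latter, -2.11 ± 0.43 (SE), was larger in BB-N and BR-S (-3.24) than in SC-N and SD-S (-0.98), and it was not called without SD-S a, BR-S a, BR-S b, BB-N a or BB-N b (adjusted p from 0.0605 to 0.0748, limma), nor with the 4 lanes as block (0.096). The remaining 5 of 10 tested P450 genes did not pass. Their differences were between -1.45 and 1.14, and only comp47672_c0_seq1_35630 was positive, with 19.4 and 27.4 for SC-N and 1.65 to 3.39 in the other libraries. Summed over the 10, P450 values were 658 to 1325 in the south and 177 to 256 in the north. The P450 genes were singled out from their list after the values were seen. Of the 4 glutathione S-transferases, the other 3 had differences of -0.37 to -0.32 and did not pass. TCALIF_06911, the lyase, which detoxifies a by-product of sugar breakdown, had 16.3, 5.56, 1.02 and 2.45 in the south and 32.7, 39.3, 16.3 and 10.97 in the north (difference 2.12 ± 0.36, SE; adjusted p = 0.0128, and 0.0594 with the 4 lanes as block, limma).

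**Figure D3:**
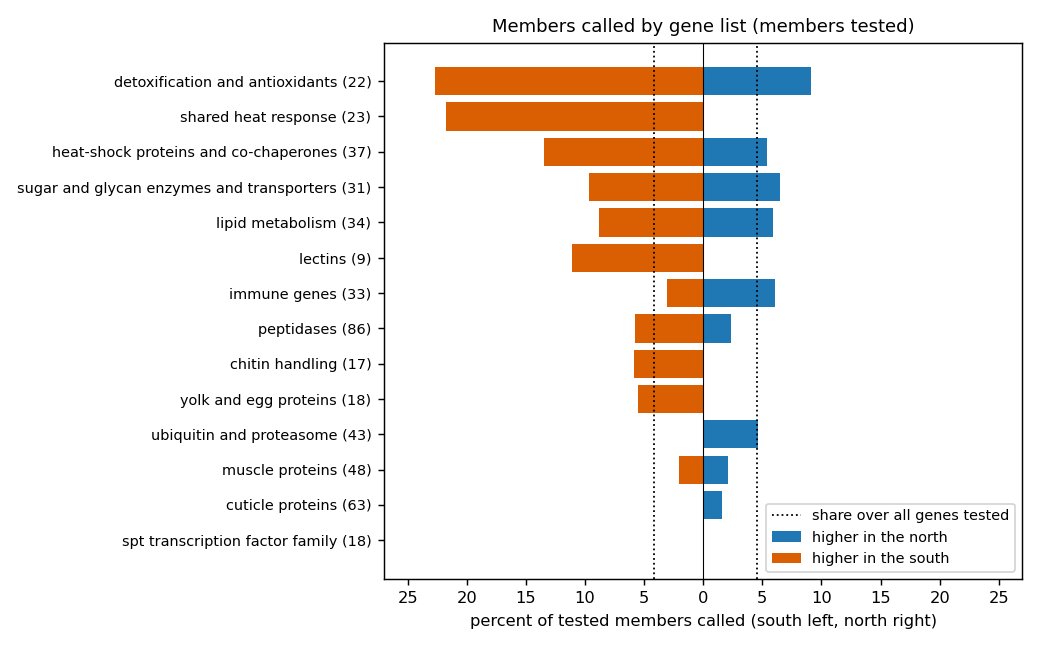
Percent of tested members called higher in the south (left, orange) and in the north (right, blue) for each gene list with at least 9 tested members, whose number stands in brackets. Dotted lines mark the shares over all genes, 4.21% and 4.5%, and detoxification genes and the heat lists extend farthest to the left.

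Among heat-shock proteins and co-chaperones, 7 of 37 tested genes were called (18.9%, against 8.71% of all genes), 2 higher in the north and 5 higher in the south. The values of 29 overlapped between regions. In the rest they did not, with 2 higher in the north and 6 in the south, and this held for 14.9% of all genes. The median difference over the list was -0.06, and it was 0.03 with total reads scaling, which turned its sign. With any 1 library left out, the counts were 0 and 3, except without SD-S b, when 5 and 5 were called and 2326 of all 14478 genes passed. Scaling to total reads gave 2 and 3. Only the HSP90 transcript comp46685_c0_seq1_33583, higher in the south, was called with the 4 lanes as block.

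TCALIF_06728, a heat shock protein 70 gene, was low everywhere at 20NV but lower in the north. It had 9.92, 7.63, 16.9 and 10.9 in the south and 2.52, 3.54, 2.20 and 2.04 in the north. The difference was -1.75 ± 0.27 (SE; adjusted p = 0.00928, limma), -1.28 and -2.23 in the lane pairs, and the call was kept with any 1 library left out (adjusted p at most 0.0381, limma). It missed the threshold with the 4 lanes as block (0.054, limma). At 28ST its values were 160 to 375 in the south and 153 to 858 in the north, and the regions no longer differed (0.43, adjusted p = 0.555, limma). At 20V it had 24.6 to 48.4 and 7.71 to 33.3 (-1.04, adjusted p = 0.125, limma). Whether the difference itself changed between treatments was not tested.

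comp46685_c0_seq1_33583, a heat shock protein 90 transcript, had 21.3 and 46.8 for SD-S and 411 and 391 for BR-S, against 4.46, 5.90, 6.06 and 7.96 in the north. The difference was -4.04 ± 0.60 (SE; adjusted p = 0.00755, limma), but it was -2.41 with SD-S and -5.66 with BR-S. A second heat shock protein 90 transcript, comp41334_c0_seq1_26338, had 322, 267, 319 and 266 in the south and 290 and 340 for SC-N, but 6.24 and 6.21 for BB-N. It was not called (-2.62, adjusted p = 0.112, limma), while the lane pairs differed by 5.44 (adjusted p = 5.85e-05, limma). The genomic transcript TCALIF_01534, whose description names the HSP90 chaperone, had 345 to 611 in the south and 396 to 557 in the north, and its difference was 0.17 (adjusted p = 0.672, limma). The 3 transcripts together had 793 to 1075 in the south, 742 in both SC-N libraries, and 560 and 571 for BB-N.

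The other southern chaperone calls were smaller. TCALIF_10858, a heat shock protein homolog, had 34.8 to 52.6 in the south and 15.1 to 22.7 in the north (difference -1.05 ± 0.17, SE; adjusted p = 0.0107, limma), kept with any 1 library left out but not with the 4 lanes as block (0.0635). TCALIF_07011, a small heat shock protein of the beta-1 kind, had 28.6 to 46.3 and 19.0 to 24.3. The co-chaperone cdc37 (TCALIF_01546), which brings kinases to HSP90, had 104 to 144 in the south and 65.4 to 86.4 in the north. The calls of TCALIF_07011 (adjusted p = 0.0463, limma) and cdc37 (0.0466) were narrow. Of TCALIF_07011, only leaving out SD-S b kept the call, and the adjusted p rose to as much as 0.138. The cdc37 call was lost without any 1 library, at up to 0.111. Their adjusted p-values were 0.117 and 0.136 with the 4 lanes as block (limma).

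Both heat shock protein 60 transcripts, which fold proteins inside mitochondria, were called higher in the north. The genomic TCALIF_02260 had 219, 464, 159 and 176 in the south and 439, 594, 456 and 453 in the north, and SD-S b was within the northern range (difference 1.06 ± 0.27, SE; adjusted p = 0.0451, limma). The de novo comp41234_c0_seq1_26214 had 73.8, 127, 71.6 and 81.4 and 186, 206, 112 and 136 (difference 0.85 ± 0.19, SE; adjusted p = 0.0345, limma). Both calls were lost without any 1 library except SD-S b, at an adjusted p of up to 0.125 for the first and 0.0905 for the second, and with the 4 lanes as block, at 0.0808 and 0.0777 (limma).

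Of the members that did not pass, the abundant heat shock protein 70 gene TCALIF_03946 had 525 to 1085 in the south and 724 to 1098 in the north. The 2 transcripts of the 78 kDa glucose-regulated protein, a chaperone of the endoplasmic reticulum, had differences of 0.12 and 2.02, neither called. The second of them, comp32704_c0_seq2_17919, had 75.8 and 62.0 for BB-N and 4.03 to 10.4 in all other libraries.

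**Figure D4:**
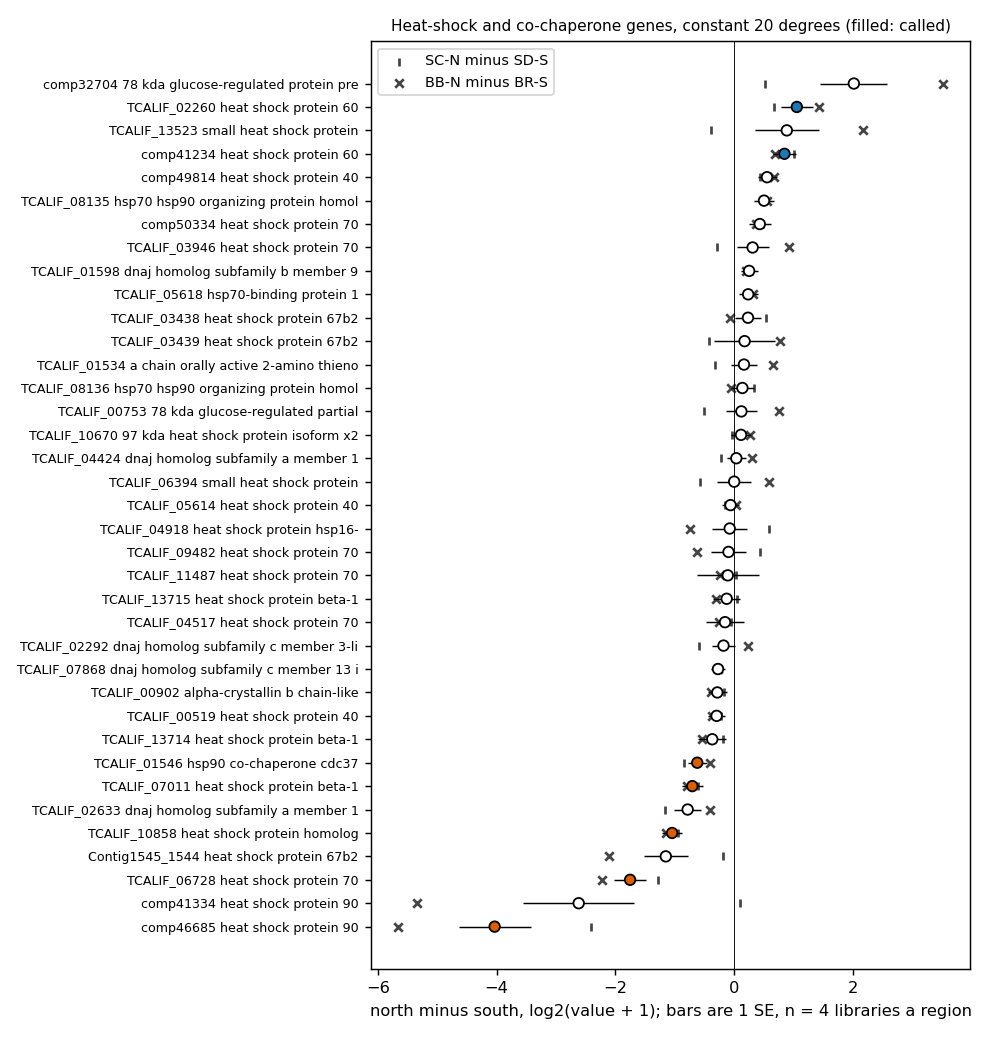
Difference between regions at 20NV for the 37 tested heat-shock and co-chaperone genes (horizontal, log2(value + 1), bars 1 SE, n = 4 libraries a region), with the difference in each lane pair as a tick (SC-N and SD-S) or a cross (BB-N and BR-S). Filled points mark the 2 genes called higher in the north and the 5 called higher in the south. Most others lie near 0, and both de novo HSP90 transcripts spread widely between lane pairs.

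A list of 25 genes described as responding to 28ST in all 4 populations was taken from the study, and 23 of these were tested. At 20NV 5 were called higher in the south (21.7%, against 4.21% of all genes) and 0 higher in the north by limma. An unadjusted p below 0.05 (limma) was found for 8 of the 23, of which 2 were higher in the north, against 28.1% of all genes. The quasi-likelihood test of edgeR called 4 and 0, and limma with the 4 lanes as block called 2 southern genes, Contig20_19 and comp46685_c0_seq1_33583. The median difference was -0.07, and 0.0038 with total reads scaling, which turned its sign. That list was drawn from contrasts that use these same 20NV libraries, so it is not independent evidence of a direction at 20NV. Besides the HSP70, HSP90 and beta-1 genes above, the calls were Contig20_19 and TCALIF_03376, which have no description. Contig20_19 had 99.5 and 110 for SD-S, 16.88 and 20.23 for BR-S, and 1.74, 3.33, 2.57 and 3.69 in the north (difference -3.59 ± 0.51, SE; adjusted p = 0.00585, limma). TCALIF_03376 had 8.39 to 17.5 in the south and 1.94 to 7.57 in the north, and its call (adjusted p = 0.0473, limma) was lost without any 1 library except BR-S a, at up to 0.132, and with the 4 lanes as block (0.12). TCALIF_01814, described as an adhesion lipoprotein, had 233, 67.7, 152 and 369 against 18.6, 50.9, 98.6 and 72.1, and it missed the threshold (-1.73, adjusted p = 0.0555, limma).

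Genes of lipid metabolism and of sugar and glycan handling were called in both directions. In lipid metabolism, 2 of 34 genes were higher in the north and 3 in the south (14.7%, against 8.71% of all genes), and 1 and 1 with the 4 lanes as block. TCALIF_00962, a delta-6 fatty acid desaturase, an enzyme that adds double bonds to fatty acids, had 3.87, 2.73, 2.56 and 1.35 in the south. In the north it had 15.9, 12.3, 6.79 and 7.67, and the difference was 1.66 ± 0.23 (SE; adjusted p = 0.00572, limma). Lipase 3 (comp43307_c0_seq1_28767) had 51.9 and 35.4 for SD-S, 11.5 and 11.5 for BR-S, 56.0 and 125 for SC-N, and 273 and 334 for BB-N. Its call (2.78 ± 0.67, SE; adjusted p = 0.0403, limma) was lost without BR-S a, BR-S b, SC-N b, BB-N a or BB-N b, at up to 0.111, and with the 4 lanes as block (0.124). The pancreatic lipase-related protein 2 gene TCALIF_13642 ranged from 10.9 to 16.3 in the south and from 4.83 to 6.78 in the north, and its call (-1.13; adjusted p = 0.0204, limma) was lost without BR-S a, BB-N a or BB-N b, at up to 0.0669, and with the 4 lanes as block (0.0887).

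Of 31 sugar and glycan enzymes and transporters, 2 were higher in the north and 3 in the south (16.1%, against 8.71% of all genes). With the 4 lanes as block 1 was called, the maltase-glucoamylase-like TCALIF_07120. This gene, named after an enzyme that releases glucose from starch products, had 117 to 183 in the south and 33.3 to 58.9 in the north (difference -1.56 ± 0.22, SE; adjusted p = 0.00622, limma). Alpha-mannosidases, which trim mannose from glycoproteins, were called both ways. The lysosomal TCALIF_12196 had 112 to 175 in the south and 13.4 to 57.4 in the north (-1.95 ± 0.38, SE), not called without SD-S a (adjusted p = 0.0605, limma) or BB-N b (0.0535). TCALIF_06365, also lysosomal, had 100.0 to 165 and 17.1 to 64.0 (-1.54), and its call was kept only without SC-N b, reaching 0.122 otherwise. The de novo comp50138_c8_seq1_41658 went the other way, with 15.3, 12.2, 2.05 and 4.32 in the south and 43.2, 38.6, 53.8 and 48.4 in the north (difference 2.60 ± 0.43, SE; adjusted p = 0.0121, limma). The adjusted p-values of these mannosidases with the 4 lanes as block were 0.0821, 0.122 and 0.0661 (limma).

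Among 86 peptidases, 2 were higher in the north and 5 in the south (8.14%, close to the share over all genes). Without SD-S b these counts were 2 and 12, where the count over all 14478 genes also rose, from 1261 to 2326. With the 4 lanes as block 2 were called, both higher in the south. The northern pair were cysteine proteases, but the cysteine protease TCALIF_06301 was called higher in the south (-0.86; adjusted p = 0.0288, limma). TCALIF_12228, cysteine proteinase 3, had 69.4, 58.7, 44.5 and 88.0 in the south and 170, 114, 574 and 333 in the north (difference 1.95 ± 0.39, SE; adjusted p = 0.0226, limma), with the call lost without BR-S b, SC-N a, BB-N a or BB-N b at up to 0.0573 and with the 4 lanes as block at 0.0874. TCALIF_13224, cathepsin L, had 4.87 and 2.45 for SD-S, 14.1 and 20.4 for BR-S, 9.69 and 13.5 for SC-N, and 107 and 56.4 for BB-N. Its regions overlapped, but it was higher in the north within each lane pair (1.47 and 2.13; adjusted p = 0.0134, and 0.0714 with the 4 lanes as block, limma). The southern calls with the largest differences were serine proteases. The others were TCALIF_06301, an aminopeptidase (TCALIF_06265) and a gamma-glutamyltranspeptidase (TCALIF_02843), so the calls did not divide by class of protease. The chymotrypsin-like TCALIF_00164 had 9.65 to 23.2 and 1.74 to 3.49 (-2.14 ± 0.31, SE; adjusted p = 0.00668, limma). TCALIF_05924, named after easter of Drosophila, had 17.8 to 32.6 and 6.06 to 10.2 (-1.42; adjusted p = 0.0155, limma, with 0.0512 without BB-N a and 0.0702 with the 4 lanes as block).

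Of 33 immune genes, 2 were higher in the north and 1 in the south (9.09%, against 8.71% of all genes). comp42479_c0_seq1_27726, a prophenoloxidase activating factor, had 56.6, 30.7, 39.6 and 70.4 in the south and 256, 374, 144 and 88.3 in the north (difference 1.97 ± 0.41, SE; adjusted p = 0.0263, limma). The proclotting enzyme-like TCALIF_07339 was higher in the north within each lane pair, with 24.7 and 20.17 for SD-S against 71.9 and 49.8 for SC-N, and 5.11 and 4.40 for BR-S against 7.71 and 13.0 for BB-N. A further proclotting enzyme-like transcript, Contig3891_5570, was higher in the south, with 6.78 to 14.1 against 2.25 to 4.66. Each of these calls was lost without 4 or 5 of the 8 libraries, at adjusted p-values of up to 0.0789 (limma): without SD-S a, BR-S a, SC-N a or BB-N a for the first, without SD-S a, BR-S a, BR-S b, SC-N a or BB-N b for TCALIF_07339, and without SD-S a, BR-S b, BB-N a or BB-N b for Contig3891_5570. All 3 were also lost with the 4 lanes as block, at 0.0972, 0.0849 and 0.0726 (limma). The list did not hold the peptidoglycan recognition transcript comp51680_c0_seq1_44539, which was called higher in the south (-1.43; adjusted p = 0.0198, limma).

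Of 63 cuticle proteins, which form the exoskeleton, 1 passed (1.59%, against 8.71% of all genes), the leading northern gene comp48310_c0_seq2_36984. The median difference over the list was -0.35, and without SC-N b it was -1.08, with 1 higher in the north and 9 in the south. Without SC-N a it was 0.13, with 4 and 0. Over all 14478 genes, 841 were called without SC-N b and 436 without SC-N a. The direction over cuticle proteins thus turned with a single SC-N library. Of 17 genes that handle chitin, 1 passed (5.88%, against 8.71% of all genes), the chitinase TCALIF_11631. It had 515 to 743 in the south, 113 and 119 for SC-N, and 403 and 353 for BB-N (adjusted p = 0.0265, limma). Its call was lost without SD-S a, BR-S b, SC-N a or SC-N b, at up to 0.0763, and with the 4 lanes as block (0.0969).

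Of 9 lectins 1 passed (11.1%, against 8.71% of all genes), the techylectin TCALIF_07734. It had 10.5 to 12.9 in the south and 2.33 to 6.78 in the north (adjusted p = 0.0387, limma, up to 0.109 without any 1 library except SD-S b, and 0.108 with the 4 lanes as block). Of 18 genes of the spt transcription factor family, 3 opsin and light signalling genes and 2 mobile elements, 0 passed by limma or by edgeR. Among them 0 had an unadjusted p below 0.05 with limma, against 28.1% of all genes.

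Muscle and yolk genes were followed as markers of what the pools held. According to the paper, each pool was set up with equal numbers of males and females. The 48 tested muscle proteins together took 1.7% of values in both SD-S libraries, 2.95% and 2.87% for BR-S, 1.33% and 1.78% for SC-N, and 2.01% and 3.16% for BB-N. Of these genes 1 was called in each direction (4.17%, against 8.71% of all genes). The median difference over the list was -0.32, against -0.0023 over all genes, and it was negative in 37 of the 48. At an unadjusted p below 0.05 (limma) there were 16 of the 48, against 4063 of all 14478 genes (28.1%). Of these 16, 4 were higher in the north. Myosin light chain 2 (comp51007_c0_seq1_44485) was higher in the north, with 121 to 251 against 230 to 687. Troponin isoform 1 (comp38407_c0_seq1_22928) was higher in the south, with 184 to 221 against 123 to 174. Both calls (adjusted p = 0.043 and 0.045, limma) were lost with most libraries left out: myosin light chain 2 without SD-S a, BR-S a, BR-S b, SC-N b, BB-N a or BB-N b, and troponin without SD-S a, BR-S a, BR-S b, SC-N a, BB-N a or BB-N b, at adjusted p-values up to 0.135. They were 0.0882 and 0.116 with the 4 lanes as block (limma).

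The 5 tested vitellogenin genes took 2.45% and 2.98% of values for SD-S and 0.509% and 0.25% for BR-S. They took 1.37% and 15.6% for SC-N and 1.71% and 1.01% for BB-N, so the populations of a region were not alike. Of 18 yolk and egg proteins 1 passed (5.56%, against 8.71% of all genes), the chorion peroxidase-like TCALIF_11050. It had 7.06, 7.82, 19.7 and 20.8 in the south and 1.94, 2.58, 3.49 and 5.73 in the north (difference -1.67 ± 0.23, SE; adjusted p = 0.00575, limma). Peroxidases of this kind harden the egg shell in insects. The vitellogenin gene TCALIF_13701 was among those with opposite signs in the lane pairs, with 360 and 311 for SD-S against 16.9 and 18.7 for SC-N, and 52.9 and 31.3 for BR-S against 120 and 86.6 for BB-N. Without SC-N b, 4 yolk and egg genes were called, and without SD-S b 2, all higher in the south. Over all 14478 genes, 435 and 1079 were called higher in the south in these fits. The part of ripe females in the other differences was not tested.

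The differences at 20NV were compared with those in the other treatments, whose libraries came from the same 4 populations, so they add treatments and pools but no further populations. Of the 1261 called genes, 1201 were tested at 28ST, and 1200 of these had the same sign. For all genes tested at both, 84.6% had the same sign. At 28ST 957 of the 1201 were called in the same direction (79.7%, against 14% over all genes), at 20V 678 of 1261 (53.8%, against 8%) and at 28V 366 of 1221 (30%, against 2.99%), and 0 were called in the opposite direction (limma). In each treatment on its own, 2011 genes were called at 28ST (14%; 7.1% higher in the north and 6.93% in the south). At 20V 1174 were called (8.11%; 4.47% and 3.64%), and at 28V 441 (3.05%; 1.79% and 1.27%). The block for the 4 lanes gave 793 at 28ST, 222 at 20V and 112 at 28V. With population means limma called 0, 78 and 0 genes, with 1451 at 28ST, 947 at 20V and 1158 at 28V at an unadjusted p below 0.05. The treatment with the 78 calls thus had the fewest genes at the unadjusted threshold. At 28V 2605 genes were called without SC-N b, so that count depended on 1 library.

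There were 321 genes called in the same direction in all 4 treatments, 191 higher in the north and 130 in the south. These numbers were 56, 31 and 25 with the 4 lanes as block. Of the northern genes 80.1% were de novo transcripts, and of the southern ones 34.6%. In 400 of the 13911 genes tested in every treatment (2.88%), all 16 northern libraries lay apart from all 16 southern libraries. comp49397_c0_seq1_39570 had 559 to 2081 over the 16 southern libraries and 6.18 to 71.2 over the northern ones, and in both regions its medians were higher at 28ST and 28V than at 20NV. In the south the median was 736 at 20NV and 1792 at 28ST, and in the north it was 15.3 and 32.0. The P450 gene TCALIF_09973 had 187 to 441 over all southern libraries and 17.9 to 58.1 over all northern ones. The flavin-binding transcript comp47743_c0_seq1_35846 had 2.16 to 4.75 and 25.3 to 39.3.

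The HSP90 transcript comp46685_c0_seq1_33583 had medians of 219 in the south and 5.98 in the north at 20NV, and of 1602 and 96.4 at 28ST. At 28ST the southern libraries spread from 143 to 3673, with the northern ones from 20.0 to 123. At 28V no member of the heat-shock list was called higher in the south, this transcript included (limma). The glutathione S-transferase comp42513_c0_seq1_27765 had northern medians of 187 to 265 and southern medians of 8.65 to 20.24 over the 4 treatments. Of 57 described genes among the 321, 38 were higher in the north. Chosen after their values were seen, these included calreticulin (comp45869_c0_seq1_32253), a calcium-binding chaperone, with differences of 1.05 to 1.57, and a DNA (cytosine-5)-methyltransferase-like transcript (comp38987_c0_seq1_23596), with 1.60 to 2.16. The 19 higher in the south included TCALIF_12406, with -4.78 to -3.92, and a segmentation protein cap n collar transcript (comp47592_c2_seq1_35449), with -3.01 to -2.47. In Drosophila cap n collar is a transcription factor of the defence against oxidants and foreign compounds.

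**Figure D5:**
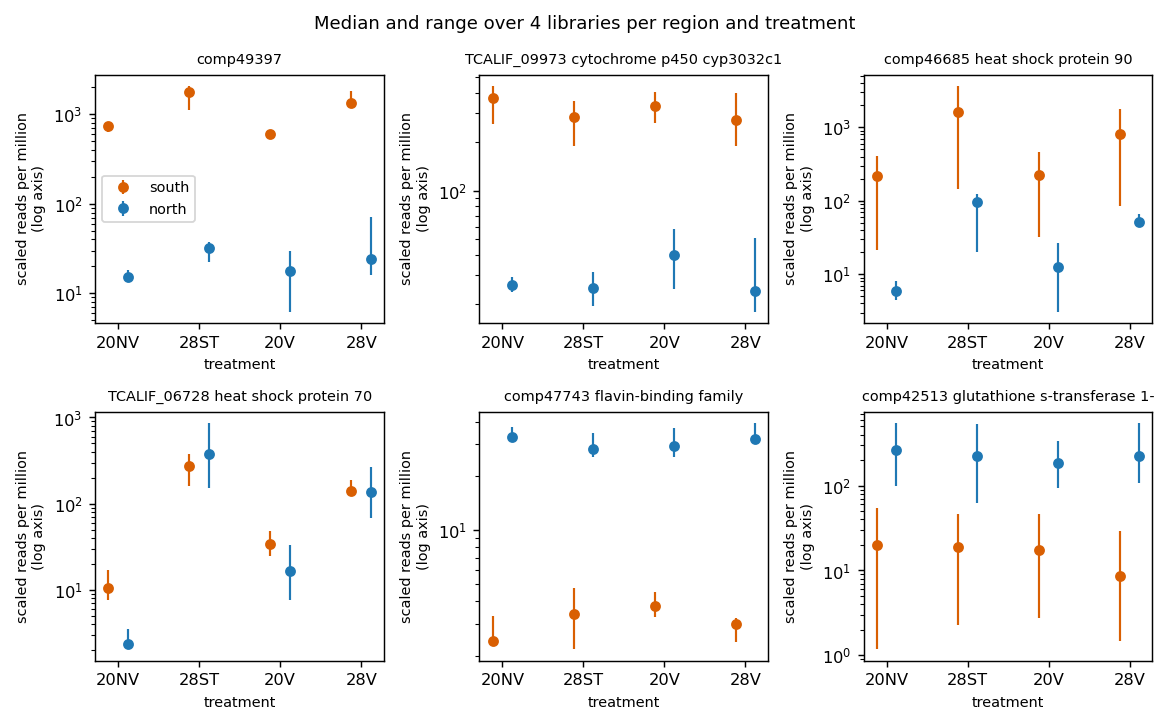
Median and range over 4 libraries in each region and treatment for 6 genes (scaled reads per 1000000, log axes), with each treatment scaled on its own. The regions stay apart in all treatments for 5 of them, while the heat shock protein 70 gene TCALIF_06728 differs at 20NV, 10.4 against 2.36, and overlaps at 28ST.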

How the data were processed

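The members and gene lists were chosen with earlier results of these data known. The authors mapped reads of each population to its own reference sets, kept unique reads, and deposited a signal, the normalised read count, which is unique reads divided by the library size after scaling by the trimmed mean of M-values (TMM) in each table. The tables also hold the authors' fold changes and p-values, which were not used, and neither were 4 repeated columns of values. Whole reads were recovered from the step of each column, 100% of values within 0.01 of a read, summing to between 4405874 and 14373568 a library. Letters a and b stand for column endings, which the labels do not tie to replicate numbers. According to the methods, the replicates of both populations of a lane pair ran together in separate lanes, and this pairs the libraries of a lane. The ending was taken to stand for the lane, and deviations of libraries with the same letter correlated at -0.034 (SD-S and SC-N) and -0.108 (BR-S and BB-N) over 11343 genes.

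Reads of the 8 libraries were scaled jointly by TMM over the 14478 genes. The libraries of each other treatment were scaled separately in the same way, over the genes listed in all 4 populations for that treatment. The log2(value + 1) values were fitted with limma 3.58.1 (R 4.3.3) with a variance trend and the lane pair as block. Benjamini-Hochberg adjustment ran over all genes, and genes with an adjusted p below 0.05 were called. No filter on low values was added to that of the authors. edgeR 4.0.16 and DESeq2 1.42.0 served as alternatives on the recovered reads, and the quasi-likelihood test of edgeR called 1043 genes. Other alternatives changed the block, the scaling, the pseudocount or a filter, or left libraries out. The steps were tested on simulated data.

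Named genes were the 10 described genes and the 4 of any kind with the largest difference in each direction among called genes with at least 1 read in every library, the same sign in both lane pairs and no overlap between regions. The heat lists, up to 4 called members of each other list, and the genes said to be chosen after their values were seen were added. Descriptions covered 2385 of the 14478 genes, and some came from lists of genes that the authors had called with these libraries. No reference sequence matched the gene names, so positions and sequences are not given. Strand was not kept in counting, so reads of overlapping genes cannot be told apart.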

Additional observations from a re-analysis of the deposited data

Results flagged for a closer look

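The north-south difference depended on the lane pair in 932 genes by the interaction term (limma, adjusted p below 0.05). Among the leading genes and the list members named, 15 were of this kind, and the value given is the difference for SC-N and SD-S minus that for BB-N and BR-S, on the log2 scale. It was 6.083 for the glutathione S-transferase comp42513_c0_seq1_27765, 5.438 for the heat shock protein 90 transcript comp41334_c0_seq1_26338 and 3.245 for the other one, comp46685_c0_seq1_33583. It was 4.052 for the cAMP-responsive element binding protein comp32719_c0_seq1_17930, 3.074 for the amebocyte aggregation factor-like TCALIF_13161 and 2.259 for the P450 transcript comp49679_c0_seq4_40337. For the heat shock protein 67b2 transcript Contig1545_1544 it was 1.926. It was -5.301 for TCALIF_08536, -3.648 for lipase 3 (comp43307_c0_seq1_28767) and -2.683 for Contig20_19. For the glucose-regulated proteins it was -3.011 (comp32704_c0_seq2_17919) and -1.270 (TCALIF_00753). It was -2.182 for the alpha-mannosidase comp50138_c8_seq1_41658, -1.785 for myotrophin (comp43577_c0_seq4_29144) and -1.669 for the chitinase TCALIF_11631. For the genes named for their opposite signs it was 7.56 (TCALIF_02213), -7.55 (comp32466_c0_seq1_17712) and -5.46 (the vitellogenin TCALIF_13701).

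Single libraries lay apart from the other 3 of their region by Dixon's criterion, in 11 of 186 groups of 4 values of named genes and in 192 groups examined in all, where chance marks about 1 in 20. In SC-N b 69% of reads fell on genomic transcripts and 13.14% on the most abundant gene, a vitellogenin. SC-N b also stood apart for heat shock protein 60 (TCALIF_02260, 593.8) and troponin (comp38407_c0_seq1_22928, 174.2), and SC-N a for the maltase-glucoamylase-like TCALIF_07120 (33.32) and a heat shock protein 70 transcript (comp50334_c0_seq1_42602, 20.15). SD-S b stood apart for the alpha-crystallin-like TCALIF_00902 (75.39), the organizing protein TCALIF_08135 (75.67), x-box binding protein 1 (TCALIF_09115, 20.64) and comp51313_c0_seq1_44507 (271.1). BR-S b did so for TCALIF_03376 (17.52). For the caspase nc-like comp40640_c0_seq2_25516, BB-N b was apart in the north (78.71) and SD-S a in the south (7.731).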

How the results depend on the processing

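Of the 1261 genes called between regions, 820 differed by at least 2-fold. Other treatments of population and lane gave other counts: 6 with 4 population means, 594 with population as a random block and 598 without the lane pair block. BB-N against BR-S alone gave 2005. A fit of all 8 libraries with a coefficient for each population and a contrast of regions gave 2832. That fit takes its error only from the spread between pools of the same population, unlike the fit on 4 population means. DESeq2 called 2251 genes. Other scalings, pseudocounts, a mean value of at least 10, no variance trend, the edgeR tests and voom stayed within 1.5 times, at 954 to 1805. With 1 library left out the count was 433 to 2326, and every library but SC-N b moved it by over 1.5 times. Without suffix b of SD-S and SC-N, chosen after seeing the data, it was 1991.

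A replicate block for the 4 lanes by suffix gave 262 calls at 20NV, 793 at 28ST, 222 at 20V and 112 at 28V, and with the suffixes of BB-N crossed, a pairing added after seeing the data, it gave 322 at 20NV. Of 56 called leading genes and list members, 27 kept their call with the 4 lanes as block.

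The count of genes that differed between lane pairs, 932, moved to 407 to 1899 with 1 library left out (1899 without SD-S a, 528 without BR-S a, 448 without BR-S b, 470 without BB-N a and 407 without BB-N b). In the other treatments, population means gave 0 calls at 28ST, 78 at 20V and 0 at 28V. Leaving out 1 library gave 950 to 1657 at 28ST, 409 to 987 at 20V and 116 to 2605 at 28V. The cause of these changes was not tested. All 56 kept their direction under every alternative run, which did not cover the genes chosen after their values were seen. The 56 were picked as called in these same libraries, and all 1261 called genes had the same sign in both lane pairs. A reversal was thus unlikely from the start, so their kept direction is not independent support.

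The limits of the comparison are its 2 populations a region, its 2 pools a population, and a lane pair that is also a population pair. Reads mapped to San Diego gene models before the de novo transcripts, so levels of diverged or duplicated genes are uncertain. The smallest library held 4405874 reads, which makes genes of a few reads imprecise.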

Other observations

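Genes listed in some populations only were left out of the comparison. There were 436 genes listed at 20NV in both southern populations and neither northern one, and 544 listed in both northern and neither southern one. A gene can be missing from a table because few of its reads passed the filter of the authors or because its reads went to another entry, and these were not separated.

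Further described genes among the 321 called in the same direction in all 4 treatments are given by their values at 20NV and were chosen after these were seen. The abnormal spindle-like transcript Contig4887_6491, named after a protein that organizes the mitotic spindle, had 2.69, 5.47, 7.16 and 7.36 in the south and 28.5, 25.3, 32.5 and 27.6 in the north. The nuclear pore transcript nup205 (comp45787_c0_seq1_32129) had 3.03 to 4.52 and 11.9 to 15.0. Both were several-fold higher in every northern library. A peptidoglycan recognition transcript (comp51680_c0_seq1_44539), of a family that binds bacterial cell walls, had 312 to 520 in the south and 73.0 to 208 in the north. The aldehyde dehydrogenase comp43610_c0_seq1_29193, an enzyme that oxidizes reactive aldehydes, had 93.1 to 209 and 26.9 to 67.0. In these 2 genes every southern library was above every northern one.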
